A study of Mus musculus with 18 samples.

Results

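Gene expression was compared between mouse bone marrow-derived macrophages kept with plasma of ApoE-Stab1-KO mice (AS1 plasma) and macrophages kept with plasma of ApoE-KO mice (ApoE plasma). The comparison was set by the sample titles: 3 arrays with AS1 plasma and 5 with ApoE plasma, 8 of the 18 arrays of the series, over all 24705 rows of the deposited table that carried a gene symbol. The plasma donors of both groups lacked apolipoprotein E, a ligand that carries lipoproteins into cells, on a C57BL/6J background, and had been fed a Western diet for 8 weeks. Donors of AS1 plasma also lacked stabilin-1. The macrophages had been grown from femoral marrow of mice whose genotype the labels do not give, in medium with fetal calf serum and M-CSF at 30 ng/mL. On day 4 this medium was replaced by medium with 10% plasma, and RNA was taken after 48 hours, on day 6. The knockouts are therefore those of the plasma donors, so the Stab1 and Apoe levels of the cultured cells say nothing about the labelling. The other arrays, 4 with wild-type plasma (WT) and 6 with plasma of ApoE-Stab2-KO mice (AS2), are given beside the comparison where they place a level. Their labels give the same 8 weeks of Western diet, 10% plasma and 48 hours.

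Stabilin-1 is a large scavenger receptor of sinusoidal endothelium and of some macrophages that takes modified lipoproteins and matrix products out of the circulation, so its loss can change what plasma contains. Macrophages short of amino acids, or with unfolded protein in the endoplasmic reticulum (ER), phosphorylate the initiation factor eIF2alpha. This raises the transcription factor ATF4, which with its partners switches on amino acid synthesis, amino acid import and the charging of transfer RNA. Marrow cultures driven by M-CSF hold mostly macrophages but can retain cells of the granulocyte series, which make their granule proteins in a fixed order during maturation, from primary granules in early precursors to the later granules of maturing neutrophils.

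Array values are log2 expression values. The median value of an array was 4.37, so that lower levels lie among the rows with the least signal. Arrays correlated across all rows at r from 0.9947 to 0.9960 within AS1 and from 0.9903 to 0.9974 within ApoE, and rows are not independent replicates. ApoE replicate 2 was the array least like its group, with an r of 0.9903 to 0.9934 to the other ApoE arrays, which without it correlated at 0.9947 to 0.9974. ApoE replicate 5 was the ApoE array most like AS1: its r with the AS1 arrays was 0.9926 to 0.9935, against 0.9817 to 0.9876 for ApoE replicates 1 to 4. It was nonetheless closer to ApoE replicates 1, 3 and 4, at 0.9947 to 0.9961, than to AS1, and its r with ApoE replicate 2 was 0.9903. Macrophage markers were high in both groups, with a mean over 7 genes of 11.13 to 11.28 with AS1 and 10.69 to 10.92 with ApoE plasma. Neutrophil and precursor markers had a mean over 12 genes of 9.29 to 9.49 against 7.49 to 8.51. Of 4 B cell markers 2 were higher with AS1 plasma: Cd79b, a signalling chain of the B cell receptor, was 7.61, 7.06 and 6.82 against 5.71, 5.76, 6.14, 6.05 and 6.05 and rose by 1.22 ± 0.18 (adjusted p = 0.00012), and its partner gene Cd79a rose by 0.32. The B cell markers Ms4a1 and Pax5 lay below the array median in all 8 arrays. The mean over the 4 was 4.70 to 5.09 with AS1 and 4.27 to 4.48 with ApoE plasma. Of 5 T and NK cell markers Nkg7 rose, by 0.55, while Cd3e, Cd3d and Ncr1 lay below the array median in all 8 arrays, as did the erythroid markers Klf1 and Alas2. Of 5 dendritic cell markers Siglech and Clec9a rose, by 0.70 and 0.31. The part of such other cells in the differences described below was not tested. In such bulk samples, a difference in the number of cells of a type and a difference in RNA per cell cannot be told apart. Whether replicates were separate cultures, marrow donors or plasma pools is not stated in the labels. The p-values therefore rest on array-to-array spread alone, part or all of which may be technical. Cd79a did not pass without AS1 replicate 1 or ApoE replicate 1 (adjusted p up to 0.207). Clec9a did not pass without AS1 replicates 1 or 2 or ApoE replicates 1, 3 or 4 (adjusted p up to 0.112). Cd79a did not pass in a fit of the AS1 and ApoE arrays alone (adjusted p = 0.0732).

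Between AS1 and ApoE plasma, 1913 rows were higher and 2175 lower with AS1 at a Benjamini-Hochberg adjusted p under 0.05 in limma, which is 7.74% and 8.8% of the rows tested, or 16.5% together. A change of at least 2-fold was present in 266 of them, or 1.08%. All AS1 arrays lay above all ApoE arrays in 9.04% of rows and below them in 9.2%. Without ApoE replicate 2, 4067 rows passed, and without ApoE replicate 5, 4429. The share of rows that passed rose with the level of the gene, from 0.364% among the 4941 rows with the lowest mean levels to 46% among the 4941 with the highest, where 1060 rows were higher and 1212 lower. Among the 4941 rows next below these in mean level it was 28.8%. Counts in gene groups are to be read beside these shares. In brief, 17 of 19 cytosolic transfer RNA synthetase genes, 23 of 28 genes of ER protein folding and 15 of 26 genes of the amino acid stress response were lower with AS1 plasma. Of the vacuolar proton pump 11 of 16 genes were lower, and of the proteasome 18 of 37 were lower and 2 higher. Among genes that were higher with AS1 plasma were 19 of 21 late and 9 of 12 early neutrophil genes, 10 of 14 macrophage surface genes and 5 of 10 class II antigen presentation genes. The shares that passed were 50% for class II and 54.1% for the proteasome, not far from the 46% given above.

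**Figure D1:**
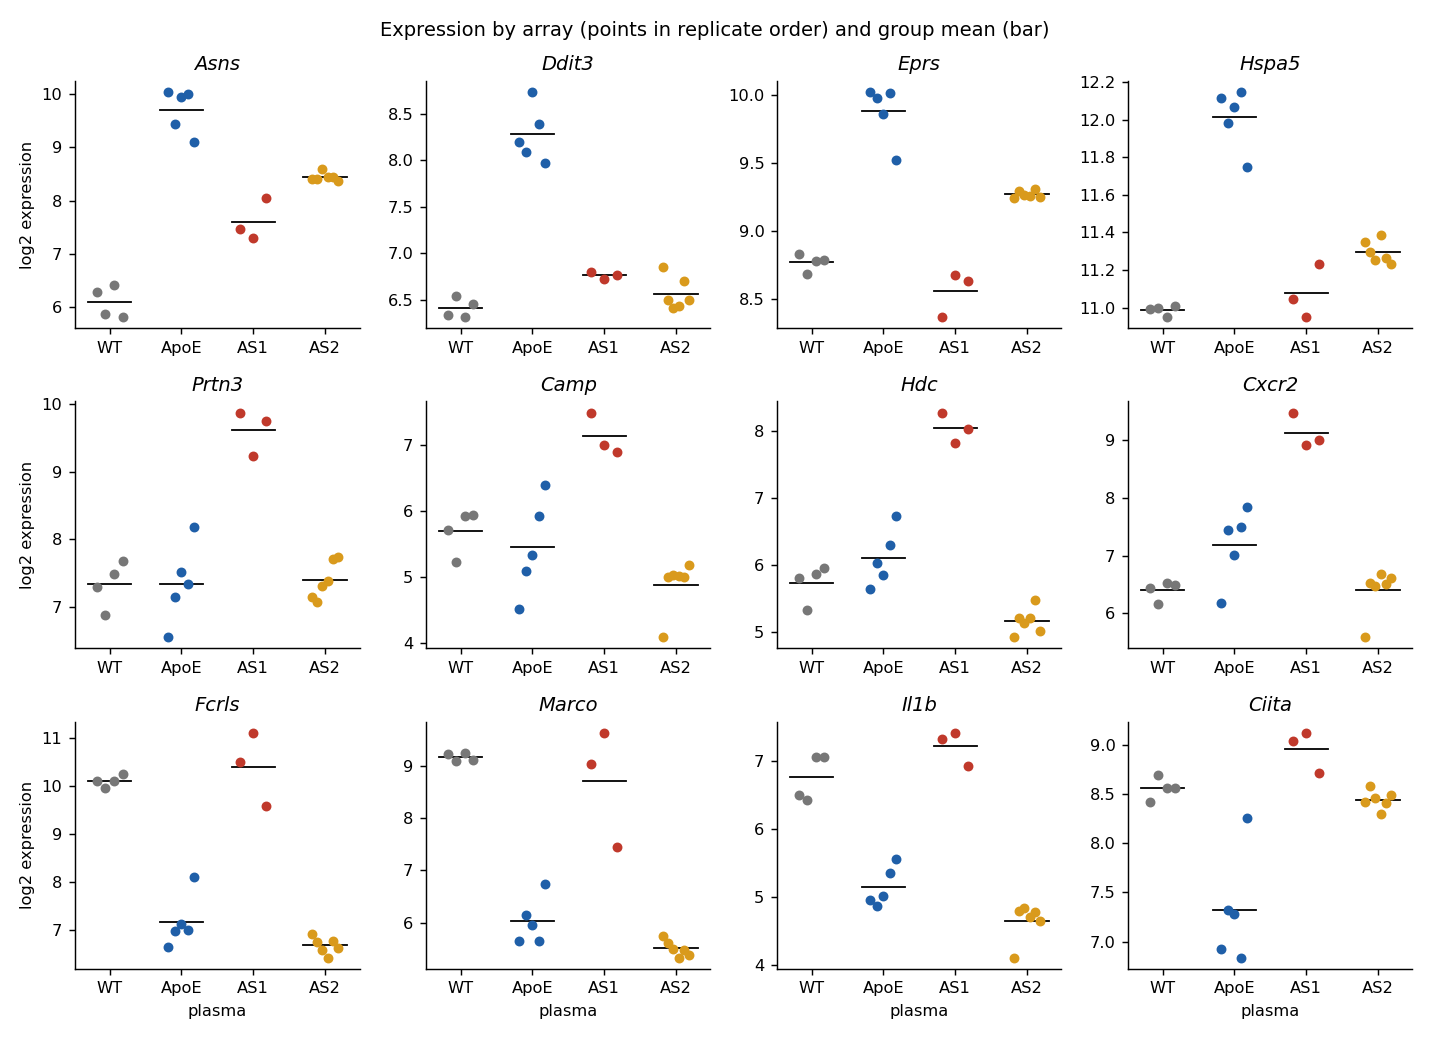
Log2 expression of 12 genes in each of the 18 arrays, by plasma group (WT, ApoE, AS1 and AS2, n = 4, 5, 3 and 6), with points for single arrays and a bar for the group mean. The upper row holds genes that were lower and the lower rows genes that were higher with AS1 than with ApoE plasma, and the ApoE array nearest the AS1 arrays is replicate 5 in most panels.

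The rows with the largest differences, leaving out predicted genes, small RNAs and pseudogenes, were the 20 that rose and the 20 that fell most, and none of the 40 overlapped between the groups. They were picked by size among rows that had passed, which by itself favours rows without overlap. Most of the 40 are described with their groups. Of the others, the haptoglobin gene Hp, whose protein binds free haemoglobin, was 8.69, 8.49 and 8.39 with AS1 and 5.84, 6.80, 6.56, 6.80 and 7.01 with ApoE plasma, and the integrin gene Itgal (CD11a), which serves leukocyte adhesion, 8.60, 8.67 and 7.84 against 6.18, 6.43, 6.28, 6.54 and 6.86. For both, every AS1 array was above every ApoE array, and they rose by 1.92 ± 0.23 and 1.91 ± 0.18 (adjusted p = 1.69e-05 and 2.22e-06). Rai14, an actin-associated protein gene, was 5.34, 5.29 and 5.51 against 7.41, 7.32, 7.14, 7.27 and 6.38 and fell by 1.72 ± 0.16 (adjusted p = 2.34e-06). Papss2, which makes the sulphate donor PAPS, Chchd10 of mitochondria, Glce of heparan sulphate synthesis, Ifrd1 and Osgin2 fell by 1.48, 1.47, 1.40, 1.62 and 1.42. Chchd10 did not pass in a fit of the AS1 and ApoE arrays alone (adjusted p = 0.0699).

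The promoters of genes in the lower groups are shown first, with the C/EBP-ATF response element, the motif that ATF4 binds with C/EBP proteins. The C/EBP-ATF response element was searched as TGATGNAA, where N is any base, on both strands of the RefSeq promoter windows of build GRCm38.p6, which run from 250 bases before to 50 bases after each start site. It was found in the windows of 16 of 64 genes (25%) of the amino acid stress, serine and folate, amino acid transporter and cytosolic synthetase lists. Among all 18380 tested genes with a window, 3.9% held it. Of the 16 genes, 13 were lower with AS1 plasma and 3 did not pass. Of all 64 genes 38 were lower, and 34.2% of these held it. These lists were written around this response, so the share of matches in them was no test of a cause. Among all genes that were lower, the share was 3.18%, so the letters were no more frequent over the lower genes as a whole than over all genes. Stretches ending at or before the start site are printed 5′ to 3′ on the gene's strand, with the matches in capitals. The positions are chr6:7693210-7693252 for Asns, minus strand, chr7:126625553-126625600 for Nupr1, minus strand, chr2:119351029-119351076 for Chac1, plus strand, chr1:191183416-191183463 for Atf3, minus strand, chr3:50443633-50443699 for Slc7a11, minus strand, and chr14:55540143-55540190 for Pck2, plus strand. The first match began 23 bases before the start site in Asns, 110 in Nupr1 and Atf3, 193 in Chac1, 66 in Slc7a11 and 103 in Pck2.
Asns: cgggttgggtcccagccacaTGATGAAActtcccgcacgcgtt
Nupr1: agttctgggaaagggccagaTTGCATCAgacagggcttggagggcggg
Chac1: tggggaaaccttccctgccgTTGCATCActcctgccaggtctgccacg
Atf3: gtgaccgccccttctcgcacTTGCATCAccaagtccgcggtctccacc
Slc7a11: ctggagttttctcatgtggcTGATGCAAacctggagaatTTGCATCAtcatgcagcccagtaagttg
Pck2: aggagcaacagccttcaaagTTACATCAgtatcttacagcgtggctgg

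All 6 genes were lower with AS1 plasma, by between 0.48 (Pck2) and 2.10 (Asns) log2 units. A match describes letters in this window and is not a binding site measured here. The other lower genes with a match were Aars, Gars, Iars, Slc1a4, Tars, Trib3 and Yars, and those that did not pass were Fgf21, Slc7a7 and Vldlr. Pck2 did not pass without AS1 replicates 2 or 3 (adjusted p up to 0.0853). Pck2 did not pass in a fit of the AS1 and ApoE arrays alone (adjusted p = 0.116).

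Among the regulators of the amino acid and eIF2alpha stress response, 8 of 12 genes were lower with AS1 plasma, 1 was higher and 3 did not pass, with a median difference of -0.45 log2 units against 0.0019 over all rows. Ddit3, which encodes the stress factor CHOP, was 6.80, 6.72 and 6.77 with AS1 and 8.20, 8.09, 8.73, 8.38 and 7.97 with ApoE plasma. The 3 AS1 arrays were nearly equal and all ApoE arrays were above them. It fell by 1.51 ± 0.13 (SE) log2 units, or 2.85-fold (limma adjusted p = 1.37e-06). Atf4 itself was 8.13, 7.93 and 8.33 against 9.02, 9.17, 9.12, 9.34 and 8.82, again without overlap, and fell by 0.96 ± 0.10 (adjusted p = 7.45e-06). Nupr1, a small chromatin protein of the stress response, was 6.70, 6.11 and 6.87 against 8.66, 8.35, 8.96, 8.61 and 7.76. Its lowest ApoE array, replicate 5, was still above the highest AS1 array, and the difference was -1.91 ± 0.22 (adjusted p = 1.15e-05).

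The remaining regulators moved less, and with AS1 and ApoE arrays fitted alone 5 of the 12 were lower. Atf5 and Ppp1r15a, the phosphatase subunit that ends the response, fell by 0.92 and 0.91, Atf3 by 0.54 and the ATF4 partner gene Cebpg by 0.32. Of the 4 eIF2alpha kinase genes, the amino acid sensor gene Eif2ak4 (GCN2) fell by 0.37 (adjusted p = 0.0146) and the heme-regulated kinase gene Eif2ak1 rose by 0.20 (adjusted p = 0.0212). The ER kinase gene Eif2ak3 and the double-stranded RNA kinase gene Eif2ak2 were at -0.12 and 0.09 and did not pass. Cebpg did not pass without AS1 replicate 1 or ApoE replicates 1, 2 or 4 (adjusted p up to 0.202). Eif2ak4 did not pass without AS1 replicate 3 (adjusted p = 0.0959). Eif2ak1 did not pass without AS1 replicates 1 or 2 or ApoE replicate 4 (adjusted p up to 0.103). Atf5, Cebpg, Eif2ak4 and Eif2ak1 did not pass in a fit of the AS1 and ApoE arrays alone (adjusted p = 0.102, 0.0914, 0.0977 and 0.0698). Eif2ak1 did not pass with a trended, robust variance (adjusted p = 0.0505).

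Of 14 targets of this response, 7 were lower and 7 did not pass. Asns, asparagine synthetase, was 7.47, 7.30 and 8.04 with AS1 and 10.04, 9.44, 9.94, 10.00 and 9.09 with ApoE plasma. It fell 4.29-fold (-2.10 ± 0.21 log2 units, adjusted p = 3.08e-06), and AS1 replicate 3 and ApoE replicate 5 were the nearest arrays of the 2 groups. The glutathione-cleaving enzyme gene Chac1 was 4.94, 5.23 and 5.58 against 6.10, 5.84, 6.54, 6.85 and 5.92 and the pseudokinase gene Trib3 5.33, 5.20 and 5.60 against 6.45, 6.26, 6.52, 6.73 and 5.72. Chac1 fell by 1.002 ± 0.19 and Trib3 fell by 0.96 ± 0.17 (adjusted p = 0.00123 and 0.000783), and the groups came close without overlap. Aldh18a1, the first enzyme of proline synthesis, fell by 1.42, the alanine transaminase gene Gpt2 by 0.75 and the mitochondrial Pck2 by 0.48. The mTORC1 inhibitor genes Ddit4 and Sesn2, also known ATF4 targets, were at 0.04 and 0.12 and did not pass. Pck2 did not pass without AS1 replicates 2 or 3 (adjusted p up to 0.0853). Pck2 did not pass in a fit of the AS1 and ApoE arrays alone (adjusted p = 0.116).

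In serine synthesis and mitochondrial folate metabolism, which supplies one-carbon units, all but 1 of 8 genes were lower. Mthfd2 was 7.48, 7.42 and 8.03 with AS1 and 9.43, 8.99, 9.51, 9.60 and 8.93 with ApoE plasma, 3.14-fold lower (adjusted p = 5.95e-06), and the groups did not overlap. Psat1 of serine synthesis fell by 0.95 ± 0.19, Mthfd1l by 0.75, the serine hydroxymethyltransferase gene Shmt2 by 0.68 and Psph by 0.30. The exception, Mthfd2l, was at -0.11 (adjusted p = 0.76). Among cytosolic folate enzymes 2 of 7 were lower, namely Mthfd1 (-0.46) and the methionine synthase reductase gene Mtrr (-0.67). Shmt1, the cytosolic counterpart of Shmt2, was at -0.15 and did not pass. Psph did not pass without AS1 replicate 2 (adjusted p = 0.0778). Psph did not pass in a fit of the AS1 and ApoE arrays alone (adjusted p = 0.0952).

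Amino acid transporter genes were split, with 9 of 20 lower, 3 higher and 8 not past. The cationic amino acid importer gene Slc7a1 was 5.74, 5.77 and 6.75 against 7.96, 7.71, 8.13, 8.23 and 7.37. AS1 replicate 3 lay well above the other AS1 arrays but below every ApoE array, and the difference was -1.79 ± 0.23 (adjusted p = 3.20e-05). The leucine importer gene Slc7a5 and its heavy chain gene Slc3a2 fell by 1.63 and 0.95, the cystine importer gene Slc7a11 by 1.25 ± 0.15 and the glutamine transporter gene Slc38a2 by 0.90. The 3 that rose were Slc36a1 (0.37), Slc38a9 (0.31) and Slc43a2 (0.23). The proteins of Slc36a1 and Slc38a9 sit on lysosomes, where they export or sense amino acids. Slc38a9 did not pass without AS1 replicates 1 or 3 (adjusted p up to 0.192). Slc43a2 did not pass without AS1 replicates 1 or 3 (adjusted p up to 0.0778). Slc36a1, Slc38a9 and Slc43a2 did not pass in a fit of the AS1 and ApoE arrays alone (adjusted p = 0.0931, 0.142 and 0.129).

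Aminoacyl-tRNA synthetases charge transfer RNA with amino acids, and cytosol and mitochondria use largely separate enzymes. Of 19 cytosolic synthetase genes, 17 were lower with AS1 plasma and 2 did not pass, with a median difference of -0.93 log2 units. Of 16 mitochondrial ones, 6 were lower and 10 did not pass, with a median of -0.21. The alanine enzyme gene Aars was 7.86, 7.83 and 7.90 with AS1 and 9.11, 8.95, 9.21, 9.37 and 8.85 with ApoE plasma. The AS1 arrays were nearly equal and far below the lowest ApoE array, for a difference of -1.23 ± 0.099 (adjusted p = 6.60e-07). Eprs, the joint glutamate and proline enzyme, fell most, by 1.32 ± 0.093 (adjusted p = 3.60e-07), from 10.02, 9.98, 9.87, 10.02 and 9.52 to 8.37, 8.68 and 8.63. Sars, Yars, Cars and Tars fell by 1.20, 1.06, 1.06 and 1.05. Smaller decreases were those of Kars (-0.35), Hars (-0.34) and Qars (-0.27). The 2 cytosolic members that did not pass were Vars (-0.16, adjusted p = 0.531) and Farsa (-0.12, adjusted p = 0.578), although Farsb, the partner subunit of Farsa, fell by 0.71. Hars did not pass without AS1 replicate 1 or ApoE replicates 1, 2, 3 or 4 (adjusted p up to 0.231). Qars did not pass without AS1 replicates 1 or 3 or ApoE replicates 2, 3 or 4 (adjusted p up to 0.212). Hars and Qars did not pass in a fit of the AS1 and ApoE arrays alone (adjusted p = 0.105 and 0.156).

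Among the mitochondrial synthetases, Iars2, Yars2 and Nars2 fell by 0.67, 0.64 and 0.59 and Ears2, Mars2 and Hars2 by 0.38, 0.30 and 0.27. The count of lower mitochondrial genes was 3 with AS1 and ApoE arrays fitted alone and 2 without AS1 replicate 1. Aars2, Sars2 and Cars2, the mitochondrial counterparts of strongly lowered cytosolic enzymes, were at 0.18, 0.05 and 0.08 and did not pass. The mean over the 19 cytosolic genes was 7.96 to 8.13 in the AS1 arrays and 8.56 to 8.95 in the ApoE arrays. Yars2 did not pass without AS1 replicates 1 or 2 (adjusted p up to 0.094). Ears2 did not pass without AS1 replicates 1 or 2 (adjusted p up to 0.118). Mars2 did not pass without AS1 replicate 1 (adjusted p = 0.0677). Hars2 did not pass without AS1 replicate 1 (adjusted p = 0.183). Yars2, Ears2 and Hars2 did not pass in a fit of the AS1 and ApoE arrays alone (adjusted p = 0.113, 0.0935 and 0.0641). Hars2 did not pass with a trended, robust variance (adjusted p = 0.0659).

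The ER chaperone and folding genes were lower almost as a block: 23 of 28 passed and none was higher. All 11 chaperones and all 7 enzymes that form disulphide bonds were lower, with a median of -0.79 in each group. Hspa5, which encodes the chief ER chaperone BiP, was 11.04, 10.95 and 11.23 against 12.12, 11.98, 12.07, 12.15 and 11.75. All ApoE arrays were above all AS1 arrays, and the difference was -0.94 ± 0.077 (adjusted p = 7.36e-07). The oxidase gene Ero1a, which regenerates disulphide bonds, was 9.55, 9.30 and 9.64 against 11.07, 11.05, 11.01, 11.23 and 10.33 and fell by 1.44 ± 0.14 (adjusted p = 2.87e-06). Pdia6 and Pdia4, protein disulphide isomerases, fell by 1.14 and 0.87, and Hyou1, Creld2, Manf and Sdf2l1, a chaperone and 3 other stress-induced ER proteins, by 1.10, 1.003, 0.98 and 0.94. The lectin chaperone genes Canx and Calr fell by 0.53 and 0.48. In the group of degradation genes and sensors 5 of 10 were lower, with Sel1l at -0.71 and Derl1 at -0.50. The sensor gene Ern1 (IRE1) and its target Xbp1 were at 0.14 and -0.07 and did not pass, while the sensor gene Atf6 fell by 0.24 (adjusted p = 0.00193). Derl1 did not pass without AS1 replicate 2 (adjusted p = 0.0722). Derl1 did not pass in a fit of the AS1 and ApoE arrays alone (adjusted p = 0.074).

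The ER stress element, searched as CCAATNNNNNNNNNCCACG on both strands of the same windows, was found in 10 of 24 genes of this list that had a window (41.7%) and in 0.169% of all tested genes with one. Of these 10 genes, 8 were lower and 2 (Derl3 and Syvn1) did not pass, and none of them held the C/EBP-ATF letters. Of all 24 genes 19 were lower, and 42.1% of these held the element. It was thus about as frequent in the lower genes of the list as in the whole list. The list was written around ER protein folding, so the share of matches in it was no test of a cause. Among all genes that were lower the share was 0.472%, and its 8 matches were the same 8 genes. Among genes that were higher it was 0.0664%, and among those that did not pass 0.145%. The match is shown for 4 genes, at chr2:34772005-34772063 for Hspa5, chr12:17266471-17266529 for Pdia6, chr15:88819500-88819558 for Creld2 and chr14:118937807-118937865 for Dnajc3, all on the plus strand, with the element in capitals, fixed ends and free middle included.
Hspa5: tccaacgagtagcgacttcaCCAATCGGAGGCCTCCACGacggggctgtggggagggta
Pdia6: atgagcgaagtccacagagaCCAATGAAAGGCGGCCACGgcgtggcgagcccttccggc
Creld2: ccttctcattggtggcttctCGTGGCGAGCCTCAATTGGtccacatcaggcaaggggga
Dnajc3: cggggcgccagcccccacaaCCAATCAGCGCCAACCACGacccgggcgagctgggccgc

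In Creld2 the element stands on the opposite strand, so its ends read CGTGG and ATTGG in the printed direction. The first base of the match lay 65 bases before the start site in Hspa5, 98 in Pdia6, 126 in Creld2 and 105 in Dnajc3, and Dnajc3, an ER co-chaperone gene, fell by 0.70 ± 0.093.

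**Figure D2:**
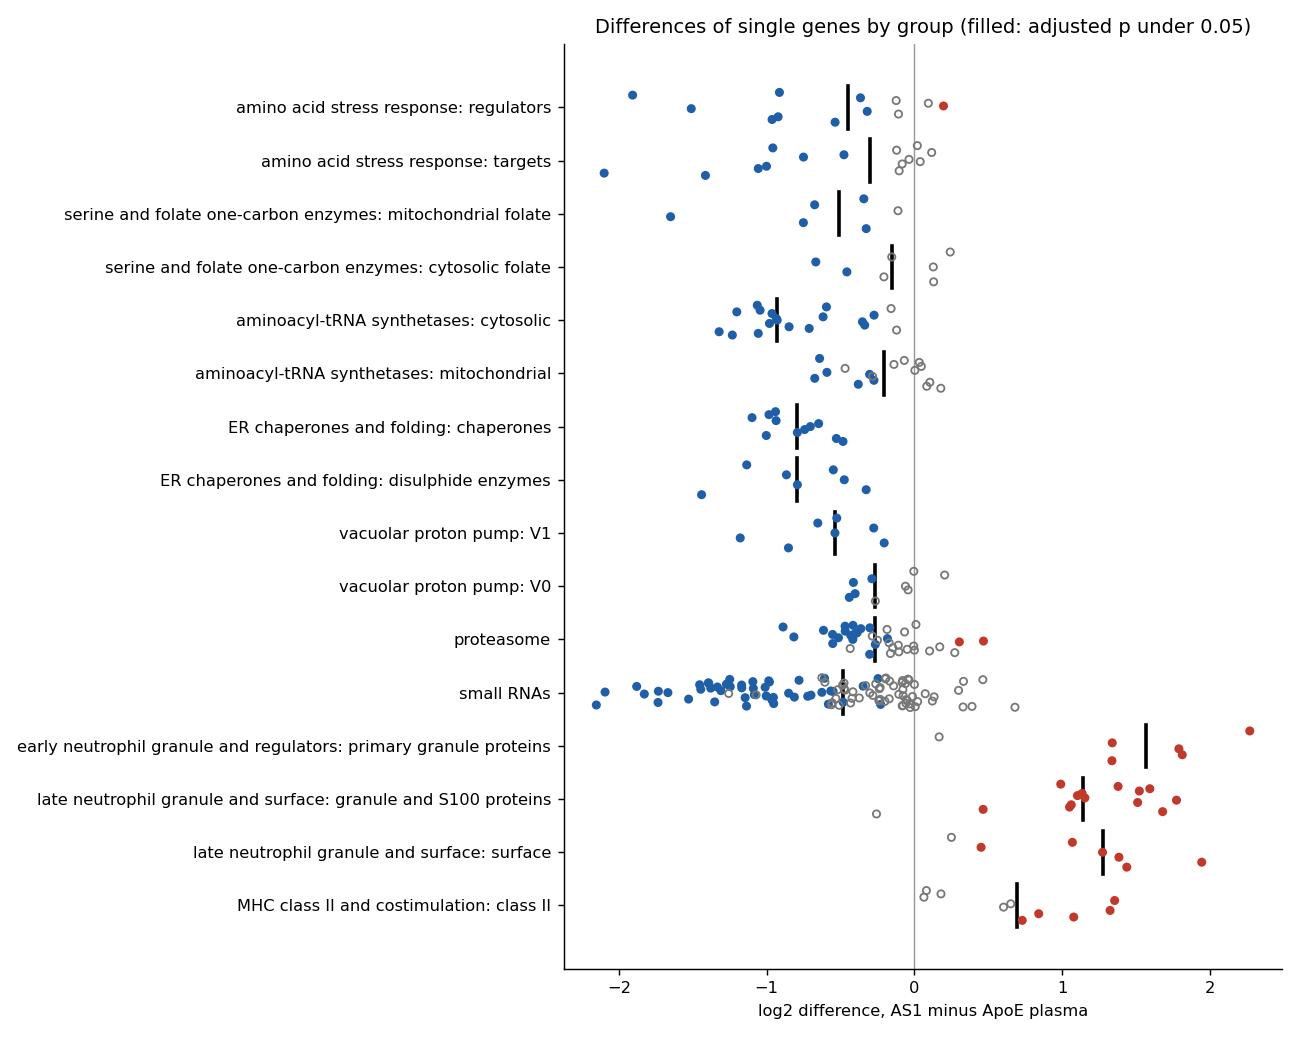
Difference in log2 expression, AS1 minus ApoE, of each gene in 16 gene groups, with filled points for genes at an adjusted p under 0.05, open points for the others and a bar for the median of the group. Cytosolic synthetases, ER chaperones and the V1 part of the proton pump lie to the left of 0, and nearly all genes of the neutrophil groups to the right.

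Genes of protein turnover and acidic compartments were lower in part. The V1 sector of the vacuolar proton pump, which hydrolyses ATP to acidify lysosomes, had 7 of 7 genes lower with a median of -0.54, and the membrane-bound V0 sector with its accessory subunits 4 of 9. When only the AS1 and ApoE arrays were fitted, 4 of the 7 V1 genes passed. Atp6v1c1 was 9.71, 9.69 and 9.83 with AS1 and 11.19, 11.01, 10.93, 10.94 and 10.54 with ApoE plasma, with no overlap, and fell by 1.18 ± 0.093 (adjusted p = 5.81e-07). Atp6v1a, the catalytic subunit gene, fell by 0.85 and Atp6v1b2 by 0.20, whereas the V0 genes Tcirg1 and Atp6v0e were at 0.00 and 0.21 and did not pass. Of 33 other lysosomal genes, 12 were lower, 3 higher and 18 did not pass. The share that passed was 45.5%, near the 46% of the rows with the highest mean levels. The alpha-galactosidase gene Gla fell by 0.998, the lysosomal cholesterol exporter gene Npc1 by 0.66 and the autophagy receptor gene Sqstm1 by 0.97. The abundant proteases Ctsb and Ctsd were at -0.06 and -0.04 and did not pass. Of the transcription factor genes that control lysosomal genes, Mitf and Tfe3 rose by 0.42 and 0.28 and Tfeb was at -0.06 and did not pass. Atp6v1b2 did not pass in a fit of the AS1 and ApoE arrays alone (adjusted p = 0.0613).

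Of 37 proteasome subunit genes, 18 were lower, 2 higher and 17 did not pass, with a median of -0.26. Those that passed were 54.1%, beside 46% of the rows with the highest mean levels. The regulatory particle genes Psmd6 and Psmc5 fell by 0.89 ± 0.07 and 0.82 ± 0.11 (adjusted p = 5.81e-07 and 3.78e-05). The 2 that rose, Psmb8 and Psmb9, encode the interferon-inducible catalytic subunits of the immunoproteasome. Psmb9 was 6.87, 6.74 and 6.84 against 6.25, 6.29, 6.30, 6.29 and 6.61, higher in every AS1 array than in any ApoE array, and rose by 0.47 ± 0.095 (adjusted p = 0.00191). The third such subunit gene, Psmb10, was at 0.17 and did not pass.

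Most measured neutrophil genes, of primary and of later granules, were higher with AS1 plasma. Of 6 primary granule genes 5 were higher, with a median of 1.57, and of 14 later granule and S100 genes 13 were higher, with a median of 1.15. Ctsg, cathepsin G of primary granules, was 7.36, 6.93 and 6.76 with AS1 and 5.49, 5.86, 5.50, 5.69 and 5.87 with ApoE plasma, a clear separation, and rose by 1.34 ± 0.15 (adjusted p = 8.08e-06). The protease gene Prtn3 was 9.87, 9.24 and 9.75 against 6.56, 7.15, 7.51, 7.34 and 8.18. Here and for Elane (9.61, 9.09 and 9.44 against 7.08, 7.24, 7.47, 7.75 and 8.29) ApoE replicate 5 was the highest ApoE array and still below the AS1 arrays. Prtn3 rose 4.83-fold and Elane 3.52-fold (adjusted p = 1.95e-05 and 9.71e-06), while Prss57, another member of this protease group, was at 0.17 and did not pass.

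The regulators of this lineage moved by less, except for Myb. This transcription factor of proliferating progenitors was 7.21, 6.95 and 6.76 against 5.28, 5.74, 5.49, 5.74 and 5.86 and rose by 1.35 ± 0.17 (adjusted p = 2.31e-05). Csf3r, the G-CSF receptor gene, Cebpe, which drives late granule genes, and Gfi1 rose by 0.95, 0.49 and 0.30. Cebpa and Cebpd were at 0.35 and 0.16 and did not pass. Gfi1 did not pass without AS1 replicate 1 (adjusted p = 0.0572).

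Among later granule genes, Camp, which encodes the cathelicidin peptide, was 7.49, 7.01 and 6.90 against 4.52, 5.09, 5.33, 5.92 and 6.40. The ApoE arrays were far apart, with replicate 1 the lowest and replicate 5 the highest, and did not reach the AS1 arrays. It rose by 1.68 ± 0.33 (adjusted p = 0.00152). The alarmin gene S100a8 was 11.45, 11.25 and 11.33 against 9.52, 10.11, 9.56, 10.03 and 10.58 and rose by 1.38 ± 0.22 (adjusted p = 0.000199), and the gelatinase gene Mmp9 rose by 1.78 ± 0.33. Lactoferrin (Ltf), Ngp, Lcn2 and Retnlg rose by 1.06, 1.15, 1.05 and 1.59. The only one of the 14 that did not pass was Anxa1 (-0.26, adjusted p = 0.0525), which macrophages also express. Of 7 surface genes 6 were higher. The chemokine receptor gene Cxcr2 was 9.48, 8.92 and 9.01 against 6.17, 7.44, 7.004, 7.49 and 7.85 and rose by 1.95 ± 0.30 (adjusted p = 0.000162), Cd177 by 1.44 and Ly6g by 0.45, while Trem1 was at 0.25 and did not pass. Ly6g did not pass without AS1 replicate 2 or ApoE replicates 1, 2, 3, 4 or 5 (adjusted p up to 0.348). Ly6g did not pass in a fit of the AS1 and ApoE arrays alone (adjusted p = 0.124). Ly6g did not pass with array weights (adjusted p = 0.0743).

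Most of the neutrophil genes were also higher than with the other plasmas. The median difference of the 21 late granule and surface genes was 1.62 to WT and 2.17 to AS2 plasma, with 17 and 20 of them higher in AS1, where 4.84% and 10.6% of all rows were higher. For the 12 early genes it was 1.27 and 1.59, with 9 and 11 higher. There were 2 exceptions that passed in the other direction. Cebpa, a transcription factor gene of granulocytes and macrophages, was lower than with WT plasma (-0.54 ± 0.12, adjusted p = 0.00771), and Anxa1 was lower than with AS2 plasma (-1.03 ± 0.084, adjusted p = 1.03e-07). Mpo, myeloperoxidase, was 10.26 ± 0.21 (SD, n = 3) with AS1, 8.47 ± 0.50 (n = 5) with ApoE, 7.65 ± 0.15 (n = 4) with WT and 8.41 ± 0.11 (n = 6) with AS2 plasma. Retnlg was 10.13 ± 0.22, 8.53 ± 0.61, 7.83 ± 0.53 and 6.92 ± 0.64 in the same order, and the AS1 mean was the highest of the 4 for both genes.

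**Figure D3:**
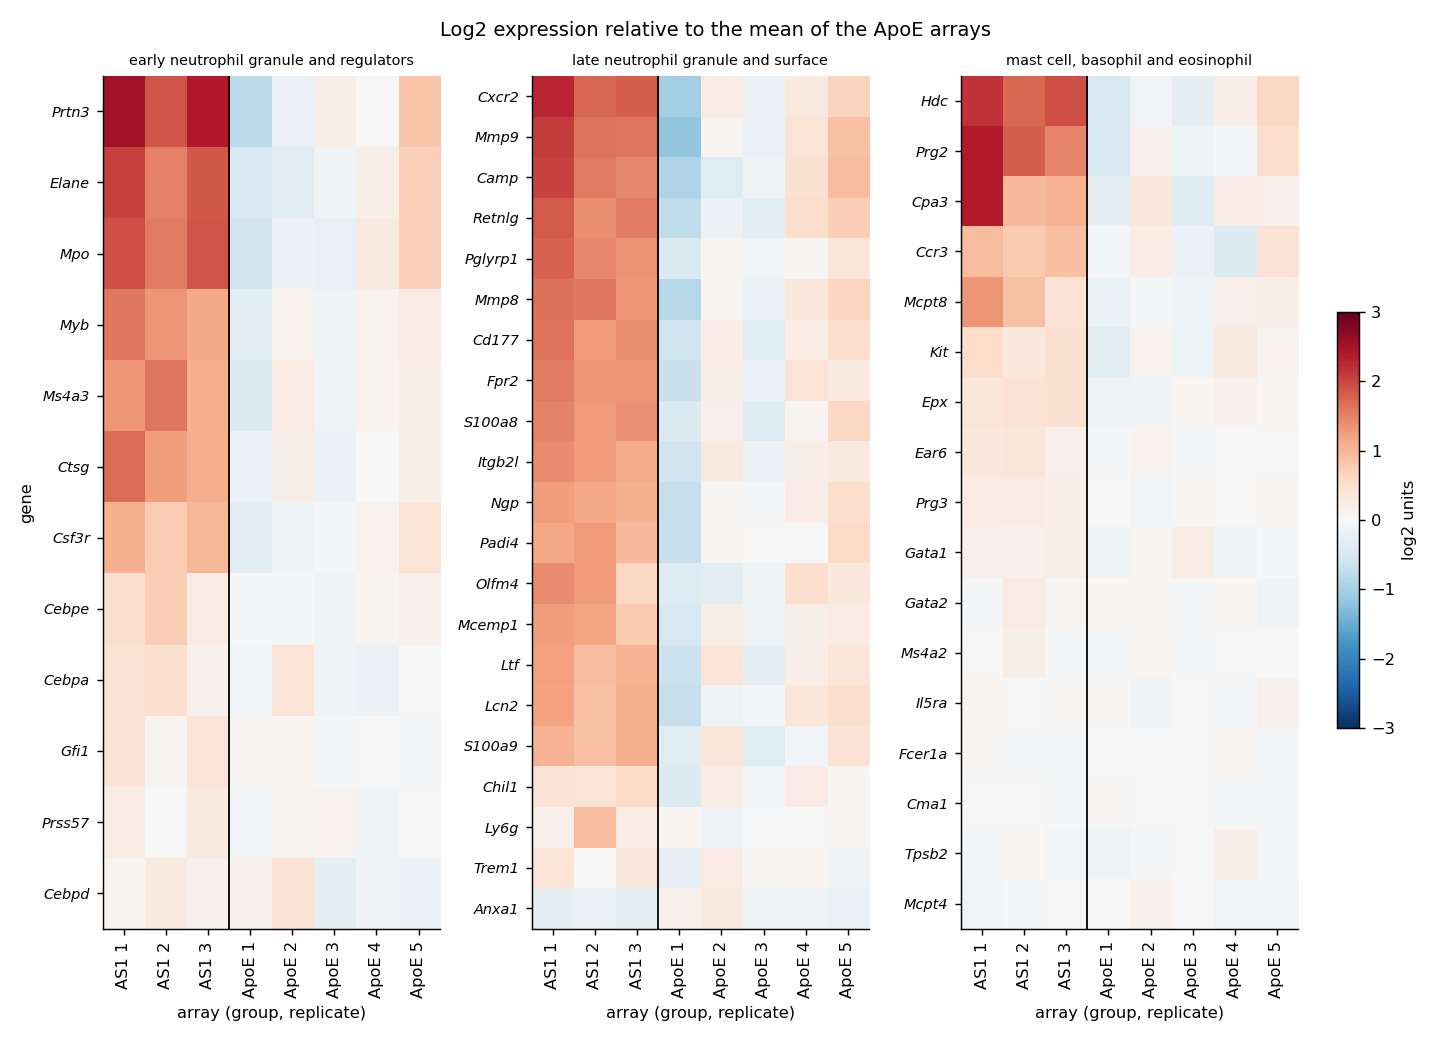
Log2 expression relative to the mean of the 5 ApoE arrays (colour scale in log2 units) for 50 genes of early and late neutrophil granules and of mast cells, basophils and eosinophils, in the 8 arrays compared, in the order AS1 replicates 1 to 3 and ApoE replicates 1 to 5. AS1 arrays are red for most neutrophil genes, and ApoE replicate 5 is the ApoE array nearest to them for 15 of the 19 late genes that passed.

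ApoE replicate 5 was the ApoE array nearest the AS1 arrays in 58.7% of all 4088 rows that passed, in 78.9% of the 19 late neutrophil genes, in 78.3% of the 23 ER genes and in 69.6% of the 23 synthetase genes that passed. Leaving out the array nearest the other group widens the mean difference in those rows by construction, so the counts without it are a description and no test of its part. Without it, 18 of 21 late and 9 of 12 early neutrophil genes were higher, and 17 of 19 cytosolic synthetases and 22 of 28 ER genes were lower.

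Granule genes of mast cells, basophils and eosinophils were higher in part. Of 10 granule genes 7 were higher and 3 did not pass. Hdc, the histamine-forming enzyme, was 8.28, 7.82 and 8.04 with AS1 and 5.64, 6.03, 5.85, 6.30 and 6.74 with ApoE plasma, and Prg2, the eosinophil major basic protein gene, 8.00, 7.43 and 7.08 against 5.13, 5.74, 5.49, 5.58 and 6.15. The groups did not overlap for either, and they rose by 1.94 ± 0.20 and 1.89 ± 0.23 (adjusted p = 5.28e-06 and 2.15e-05). Cpa3, carboxypeptidase A3, was 7.19, 5.78 and 5.86 against 4.52, 5.12, 4.42, 5.03 and 4.96, with AS1 replicate 1 far above the rest, and rose by 1.47 ± 0.26 (adjusted p = 0.000705). The mast cell chymase and tryptase genes Cma1, Mcpt4 and Tpsb2 were at -0.01, -0.05 and -0.03 and did not pass. The receptor genes Fcer1a and Ms4a2, which define mast cells and basophils, lay below the array median in all 8 arrays, with differences of -0.01 and 0.05. Kit rose by 0.44 and Ccr3 by 0.88, while Gata1 and Gata2 did not pass (0.15 and 0.10). Kit did not pass without AS1 replicate 1 (adjusted p = 0.0715). Kit did not pass in a fit of the AS1 and ApoE arrays alone (adjusted p = 0.0732).

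Stefin A genes, which encode cysteine protease inhibitors, lie in a cluster of near-identical copies, so their values are uncertain. Of 5 such rows only Stfa2l1 passed: it was 7.25, 6.80 and 5.76 with AS1 and 3.93, 4.03, 4.22, 4.34 and 4.59 with ApoE plasma, 5.21-fold higher (adjusted p = 9.05e-06), with the AS1 arrays far apart from each other. The related Cst3 and Cst7 rose by 0.51 and 0.36 and Cstb fell by 0.51. Cst7 did not pass without AS1 replicates 1 or 2 (adjusted p up to 0.171). Cstb did not pass in a fit of the AS1 and ApoE arrays alone (adjusted p = 0.0876).

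Genes of the macrophage and monocyte surface were mostly higher with AS1 plasma, 10 of 14 macrophage genes and 7 of 10 monocyte genes, with 1 monocyte gene lower. Adgre4, an adhesion receptor of the F4/80 family, was 10.35, 10.44 and 10.14 against 8.11, 8.57, 8.07, 7.77 and 8.96, all AS1 arrays being above every ApoE array, and rose by 2.02 ± 0.18 (adjusted p = 1.50e-06). Aif1, Coro1a and Itgam (CD11b) rose by 1.14, 1.02 and 0.91, and Cx3cr1 and Cd163 by 0.99 and 0.77. The monocyte genes Ly6c2 and Ccr2 were 10.20, 9.74 and 9.88 against 7.95, 8.10, 8.32, 8.44 and 8.76 and 8.65, 8.28 and 8.26 against 6.83, 6.95, 6.80, 6.40 and 7.18. Neither pair overlapped, and they rose by 1.63 ± 0.29 and 1.56 ± 0.14 (adjusted p = 0.000737 and 1.22e-06). These 2 genes were placed differently in the other groups. Ly6c2 had a mean of 8.10 ± 0.35 with WT and 7.45 ± 0.61 with AS2 plasma, both below AS1, whereas Ccr2 had 8.68 ± 0.17 and 8.83 ± 0.10, against 8.40 ± 0.22 with AS1. The versican gene Vcan, the monocyte gene that went the other way, fell by 0.55. Mrc1, Mertk and Cd68 did not pass (0.01, -0.03 and -0.16). Vcan did not pass without AS1 replicate 1 or ApoE replicates 1 or 4 (adjusted p up to 0.217). Vcan did not pass in a fit of the AS1 and ApoE arrays alone (adjusted p = 0.0783).

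The largest differences in surface receptors came with a wide spread among the AS1 arrays. Fcrls, an Fc receptor-like scavenger protein of macrophages, was 10.49, 11.10 and 9.58 with AS1 and 6.64, 6.96, 7.10, 6.99 and 8.10 with ApoE plasma, and Marco, a class A scavenger receptor gene, 9.04, 9.62 and 7.44 against 5.64, 6.14, 5.96, 5.65 and 6.74. AS1 replicate 2 was the highest and replicate 3 the lowest for both, yet every AS1 array exceeded every ApoE array. They rose by 3.23 ± 0.29 and 2.68 ± 0.33 (adjusted p = 1.46e-06 and 2.64e-05). The SE and p rest on a spread pooled over all 4 plasma groups. For Marco the SD was 1.13 within AS1 and 0.45 within ApoE, against 0.08 within WT and 0.15 within AS2, so the pooled SE understates the AS1 spread. The dicarboxylate transporter gene Slc13a3 was 8.13, 9.54 and 6.40 against 4.60, 4.76, 4.90, 4.85 and 4.74, with an SD of 1.57 within AS1 and 0.11 within ApoE. The complement inhibitor gene Cd55, the ferroxidase gene Cp and the inhibitory lectin gene Siglece had the same order of AS1 arrays, with ranges of 5.03 to 7.58, 5.66 to 7.49 and 5.62 to 7.34. An SD above 0.75 within AS1 was present in 9 of the rows that were higher, of which 6 were highest in replicate 2 and 8 lowest in replicate 3.

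The stabilin and class A scavenger receptor genes moved separately. Msr1 was 8.11, 8.32 and 8.69 against 9.71, 9.45, 9.39, 9.50 and 9.12 and fell by 1.06 ± 0.11 (adjusted p = 7.27e-06), opposite to Marco, without overlap. Stab1 and Stab2 were at 0.14 and 0.38 and did not pass (adjusted p = 0.134 and 0.155), nor did Apoe (0.05, adjusted p = 0.836). Of other genes in the list of scavenger receptors and related genes, Scarb1 rose by 0.61 and Cd36 fell by 0.39. Lrp12, a relative of the LDL receptor by family name, fell by 1.68 ± 0.14, from 9.38, 8.88, 9.20, 9.43 and 8.63 to 7.45, 7.39 and 7.42, where all AS1 arrays were nearly equal. Lrp1 was at -0.14 and did not pass.

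Tmem176a and Tmem176b, neighbouring genes for membrane channels of antigen-presenting cells, were both higher: Tmem176a was 9.94, 10.01 and 9.20 against 6.53, 6.88, 7.30, 7.41 and 8.23 and rose by 2.45 ± 0.27 (adjusted p = 8.45e-06), and Tmem176b rose by 1.97 ± 0.22. In the MS4A family 5 of 11 were higher, led by Ms4a6b (1.29), Ms4a4a (0.87) and Ms4a6c (0.78), while Ms4a6d was at -0.15 and did not pass. The 5 were 45.5%, near the 46% of the rows with the highest mean levels. Among C-type lectins of the Dectin cluster and its neighbours, 9 of 13 were higher and 3 lower. Clec4b2, Clec4a2 and Clec4a1 rose by 1.15, 0.97 and 0.96 and the beta-glucan receptor gene Clec7a by 0.62. With AS1 and ApoE arrays fitted alone 1 was lower. The 3 that fell were Clec4e (Mincle, -0.64), Clec4n (Dectin-2, -0.31) and Clec4d (-0.27), and for Clec4e the groups overlapped, with 7.94, 7.53 and 7.70 against 8.62, 8.27, 8.62, 8.51 and 7.81. The CD200 receptor-like gene Cd200r4 was 4.68, 5.35 and 5.49 against 7.78, 7.09, 7.34, 7.36 and 6.98 and fell by 2.14 ± 0.23 (adjusted p = 7.54e-06), and Cd200r1 fell by 0.68, whereas Cd200r2 and Cd200r3 were at 0.00 and 0.08 and did not pass. Clec4n did not pass without AS1 replicate 1 (adjusted p = 0.0669). Clec4d did not pass without AS1 replicate 2 (adjusted p = 0.0546). Clec4e and Clec4n did not pass in a fit of the AS1 and ApoE arrays alone (adjusted p = 0.0695 and 0.0631).

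The interleukin-1 genes did not move together. Il1b was 7.32, 7.41 and 6.93 with AS1 and 4.96, 4.87, 5.01, 5.34 and 5.55 with ApoE plasma and rose by 2.07 ± 0.20 (adjusted p = 2.28e-06). Il1f9, which encodes interleukin-36 gamma, was 8.08, 7.83 and 7.37 against 4.69, 5.82, 5.26, 5.77 and 6.12 and rose by 2.23 ± 0.31 (adjusted p = 6.23e-05). Il1a was 5.04, 4.79 and 5.11 against 5.73, 6.45, 5.80, 5.95 and 5.64 and fell by 0.94 ± 0.13 (adjusted p = 8.72e-05). The AS1 arrays thus lay above the ApoE arrays for Il1b and Il1f9 and below them for Il1a. The receptor antagonist gene Il1rn was at -0.13 and did not pass (adjusted p = 0.634). The inflammasome genes Nlrp3 and Pycard rose by 0.72 and 0.57, and Casp1 was at -0.10 and did not pass. Of 11 genes for NF-kB subunits and inhibitors 7 were higher, among them Bcl3 (0.61), Nfkb2 (0.56) and Relb (0.55). The count was 4 with the 2 groups fitted alone and 4 without AS1 replicate 1. Of 14 cytokine and enzyme genes of the same list only Il10 passed (0.32). Tnf and Il6 were at -0.27 and -0.13. Il10 did not pass without AS1 replicates 1 or 2 or ApoE replicates 1, 2 or 4 (adjusted p up to 0.247). Nlrp3 and Il10 did not pass in a fit of the AS1 and ApoE arrays alone (adjusted p = 0.0561 and 0.134).

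Of 12 Toll-like receptor genes 4 were higher and 1 lower. Together these were 41.7%, near the 46% of the rows with the highest mean levels. Tlr9, the receptor for bacterial DNA, was 9.31, 9.45 and 9.13 against 8.06, 8.17, 8.08, 7.99 and 8.65, without overlap, and rose by 1.11 ± 0.12 (adjusted p = 9.05e-06). Tlr5, Tlr1 and Tlr8 rose by 0.64, 0.43 and 0.36, Tlr4 fell by 0.30 and its partner genes Ly96 and Cd14 rose by 0.52 and 0.33. Of 23 chemokine ligand genes 3 were higher and 2 lower, and at most 1 was higher without AS1 replicate 1, 2 or 3, without ApoE replicate 2 or with the 2 groups fitted alone. Those that passed were 21.7%, between the 16.5% of all rows and the 28.8% of rows next below the highest in mean level. Cxcl2 and Ccl2 fell by 1.13 and 0.87, and Ppbp, a platelet chemokine, and Ccl5 rose by 0.91 and 0.77. Cxcl2 was 5.01, 5.29 and 5.88 against 5.97, 7.01, 6.97, 6.88 and 5.76, and AS1 replicate 3 lay within the ApoE range. Tlr5 did not pass without AS1 replicates 1 or 3 (adjusted p up to 0.108). Ly96 did not pass without AS1 replicates 1 or 3 (adjusted p up to 0.148). Cd14 did not pass without AS1 replicate 2 (adjusted p = 0.0856). Ppbp did not pass without AS1 replicates 1, 2 or 3 or ApoE replicates 1 or 2 (adjusted p up to 0.168). Ccl5 did not pass without AS1 replicate 1 (adjusted p = 0.0682). Tlr5, Ly96, Cd14, Cxcl2, Ppbp and Ccl5 did not pass in a fit of the AS1 and ApoE arrays alone (adjusted p = 0.113, 0.108, 0.0766, 0.0759, 0.117 and 0.0812). Ppbp did not pass with array weights (adjusted p = 0.0568).

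Class II antigen presentation genes were higher in part, 5 of 10. This was 50%, near the 46% of the rows with the highest mean levels. Ciita, the class II master regulator, was 9.04, 9.12 and 8.71 against 6.92, 7.32, 7.28, 6.84 and 8.25. ApoE replicate 5 was well above the other ApoE arrays and below the AS1 arrays, and the difference was 1.63 ± 0.22 (adjusted p = 4.53e-05). H2-Eb1, H2-Aa and H2-DMa rose by 1.36, 1.08 and 1.33 and the invariant chain gene Cd74 by 0.73. The inhibitory ligand gene Cd274 (PD-L1) fell by 0.68, and Cd80 and Cd86 were at -0.03 and -0.07 and did not pass. Of 23 antiviral interferon-stimulated genes 6 were higher and 1 lower. Together these were 30.4%, near the 28.8% of the rows next below the highest in mean level. Rsad2 (viperin) and Oas2 rose by 0.79 and 0.63, Oas1g fell by 0.78, and Isg15 and Mx1 were at -0.04 and 0.13 and did not pass. Irf7, the amplifier of interferon responses, rose by 1.001 ± 0.15 and Irf1 by 0.68. Of 9 guanylate-binding protein genes 3 were higher, or 33.3%. Gbp7 was 7.48, 7.69 and 7.22 against 5.64, 5.98, 5.59, 5.88 and 6.45 and rose by 1.56 ± 0.18 (adjusted p = 1.23e-05). Cd274 did not pass in a fit of the AS1 and ApoE arrays alone (adjusted p = 0.0533).

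Cholesterol export and synthesis genes passed at shares near those of other rows. Of 9 efflux and apolipoprotein genes 3 were lower, 1 was higher and 5 did not pass, with a median of -0.05. Those that passed were 44.4%, near the 46% of the rows with the highest mean levels. Npc1, described above, and Npc2, which together move cholesterol out of lysosomes, fell by 0.66 and 0.18, and Nceh1, which frees cholesterol from its stored esters, fell by 0.52 ± 0.076 (adjusted p = 0.000103). Pltp, the phospholipid transfer protein gene, was 13.21, 13.16 and 13.11 with AS1 and 12.68, 12.51, 12.77, 12.81 and 12.97 with ApoE plasma and rose by 0.41 ± 0.074 (adjusted p = 0.000655). Every AS1 array was above every ApoE array. Abca1 was 11.74, 11.80 and 11.71 with AS1 and 11.86, 11.93, 11.68, 11.75 and 11.78 with ApoE plasma and Abcg1 10.78, 10.78 and 10.71 against 10.74, 10.65, 10.82, 10.85 and 10.87. The arrays of both groups overlapped for these cholesterol exporters, with differences of -0.05 ± 0.065 and -0.03 ± 0.053 (adjusted p = 0.732 and 0.82). Of 17 cholesterol synthesis enzyme genes 3 were lower, namely Hmgcs1 (-0.71), Cyp51 (-0.66) and Msmo1 (-0.39), with a median of 0.00, and with array weights 5 were lower. The 3 were 17.6%, near the 16.5% of all rows that passed. The fatty acid-binding protein gene Fabp5 was the exception among lipid genes by size. It was 6.81, 6.79 and 7.15 against 8.83, 8.72, 8.46, 8.74 and 8.12, without overlap, and fell by 1.66 ± 0.15 (adjusted p = 1.43e-06), while its relative Fabp4 was at 0.09 and did not pass. The lipid droplet coat genes Plin2 and Plin3 fell by 0.37 and 0.65, and the triglyceride synthesis genes Dgat1 and Dgat2 rose by 0.62 and 0.54. Npc2 did not pass without AS1 replicate 1 (adjusted p = 0.0651). Msmo1 did not pass without AS1 replicates 1 or 3 (adjusted p up to 0.121). Msmo1 did not pass in a fit of the AS1 and ApoE arrays alone (adjusted p = 0.0691).

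In glycolysis, Pfkp, the glucose transporter gene Slc2a1 and Ldha fell by 1.14, 0.81 and 0.63, and the transporter gene Slc2a3, common in neutrophils, rose by 1.12. Gapdh and Pkm were at 0.02 and 0.00 and did not pass. Vegfa fell by 0.87 ± 0.11 and the receptor gene Kdr fell by 1.74 ± 0.21, from 6.55, 6.96, 6.64, 6.82 and 5.55 to 4.58, 4.82 and 4.88, where ApoE replicate 5 stood between the other ApoE arrays and the AS1 arrays. Of 17 NRF2 target genes, which defend against oxidants, 7 were lower and 1 higher. Together these were 47.1%, near the 46% of the rows with the highest mean levels. Me1 and Txnrd1 fell by 0.88 and 0.71, while Nqo1 and Hmox1 were at 0.11 and -0.03 and did not pass. Of 74 oxidative phosphorylation genes 12 were lower and 1 higher, or 16.2% and 1.35%, with Ndufa12 at -1.06. Of 60 ribosomal protein genes 1 was higher and 1 lower.

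Transcription factor genes of the macrophage lineage were higher in 7 of 16 cases and lower in 1. Together these were 50%, near the 46% of the rows with the highest mean levels. Spi1 (PU.1) was 10.14, 10.00 and 9.90 against 9.29, 9.12, 9.71, 9.38 and 9.74 and rose by 0.57 ± 0.11 (adjusted p = 0.00167), and Runx1 rose by 0.64, while Klf4 fell by 0.55. The repressor gene Bhlhe41 was 6.40, 6.85 and 6.79 against 8.83, 8.38, 8.72, 8.74 and 8.29 and fell by 1.91 ± 0.13 (adjusted p = 3.60e-07), without overlap. Its relative Bhlhe40 was at 0.13 and did not pass. Id2 fell by 1.01. Of 17 immediate early genes 5 were lower, with Egr1 at -1.07, Jun at -0.66 and Myc at -0.46, and none was higher. The count was 3 with the 2 groups fitted alone and 3 without AS1 replicate 2. The 5 lower genes were 29.4%, near the 28.8% of the rows next below the highest in mean level. Fos and Junb were at 0.01 and 0.12 and did not pass. Klf4 did not pass without AS1 replicate 3 or ApoE replicates 2, 3 or 4 (adjusted p up to 0.232). Jun did not pass without AS1 replicate 2 or ApoE replicates 3 or 4 (adjusted p up to 0.152). Klf4 and Jun did not pass in a fit of the AS1 and ApoE arrays alone (adjusted p = 0.117 and 0.122).

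Of 19 genes of mitosis, which mark dividing cells, 7 were higher (12 without ApoE replicate 2), with a median of 0.32. Plk1 was 8.01, 7.90 and 8.06 with AS1 and 7.19, 7.45, 7.45, 7.39 and 7.58 with ApoE plasma and rose by 0.58 ± 0.11 (adjusted p = 0.00124). Of 19 DNA replication genes 2 were higher (Tk1, 0.60, and Mcm7, 0.32) and 1 lower (Mcm3, -0.42). Together these were 15.8%, near the 16.5% of all rows that passed. The cyclin gene Ccnd3 was 7.13, 7.02 and 7.27 against 5.70, 5.66, 6.15, 6.32 and 6.56, with no overlap, and rose by 1.06 ± 0.16 (adjusted p = 0.000154), whereas Ccnd1 was at -0.18 and did not pass and Cdk4 fell by 0.70. Against the other plasmas the median difference of the mitosis genes was 1.92 to WT, with 19 of 19 higher, and -0.73 to AS2, with 16 of 19 lower, where 11.5% of all rows were lower. Among megakaryocyte and platelet genes 4 of 8 were higher than with ApoE plasma (2 without AS1 replicate 1 or 3, 1 with the 2 groups fitted alone), with Gp9 at 1.05 ± 0.22 and Itga2b at 0.67. The platelet chemokine gene Pf4, which macrophages also express, was at -0.16 and did not pass. Mcm7 did not pass without AS1 replicate 3 (adjusted p = 0.144). Mcm3 did not pass without AS1 replicate 2 (adjusted p = 0.0958). Itga2b did not pass without AS1 replicate 2 (adjusted p = 0.0607). Mcm3 and Itga2b did not pass in a fit of the AS1 and ApoE arrays alone (adjusted p = 0.0682 and 0.0705).

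Small nucleolar RNAs guide the modification of ribosomal RNA and are processed from introns of host genes. Of 107 rows of these and related small RNAs, 47 (43.9%) were lower and none was higher, with a median of -0.48 log2 units. Snord16a was 6.30, 6.37 and 5.82 with AS1 and 8.57, 8.43, 8.30, 8.45 and 7.55 with ApoE plasma and fell by 2.09 ± 0.31 (adjusted p = 0.000124). Snora31 and Snord15a fell by 1.74 and 1.67. The host genes moved less, with 6 of 21 lower and none higher, and included Snhg6 (-1.02), Snhg1 (-0.74) and Gas5 (-0.44). The 6 were 28.6%, near the 28.8% of the rows next below the highest in mean level. Gnl3, a nucleolar GTPase gene that also hosts such RNAs, was 6.37, 6.85 and 6.91 against 8.37, 8.17, 8.11, 8.30 and 7.88 and fell by 1.46 ± 0.11 (adjusted p = 5.73e-07). The extraction kit was one for microRNA, and recovery of short RNA was not measured, so its part in these values was not tested. Small RNAs were also lower than with WT and AS2 plasma, with medians of -0.44 and -0.78 and 33 and 70 of 107 rows lower.

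**Figure D4:**
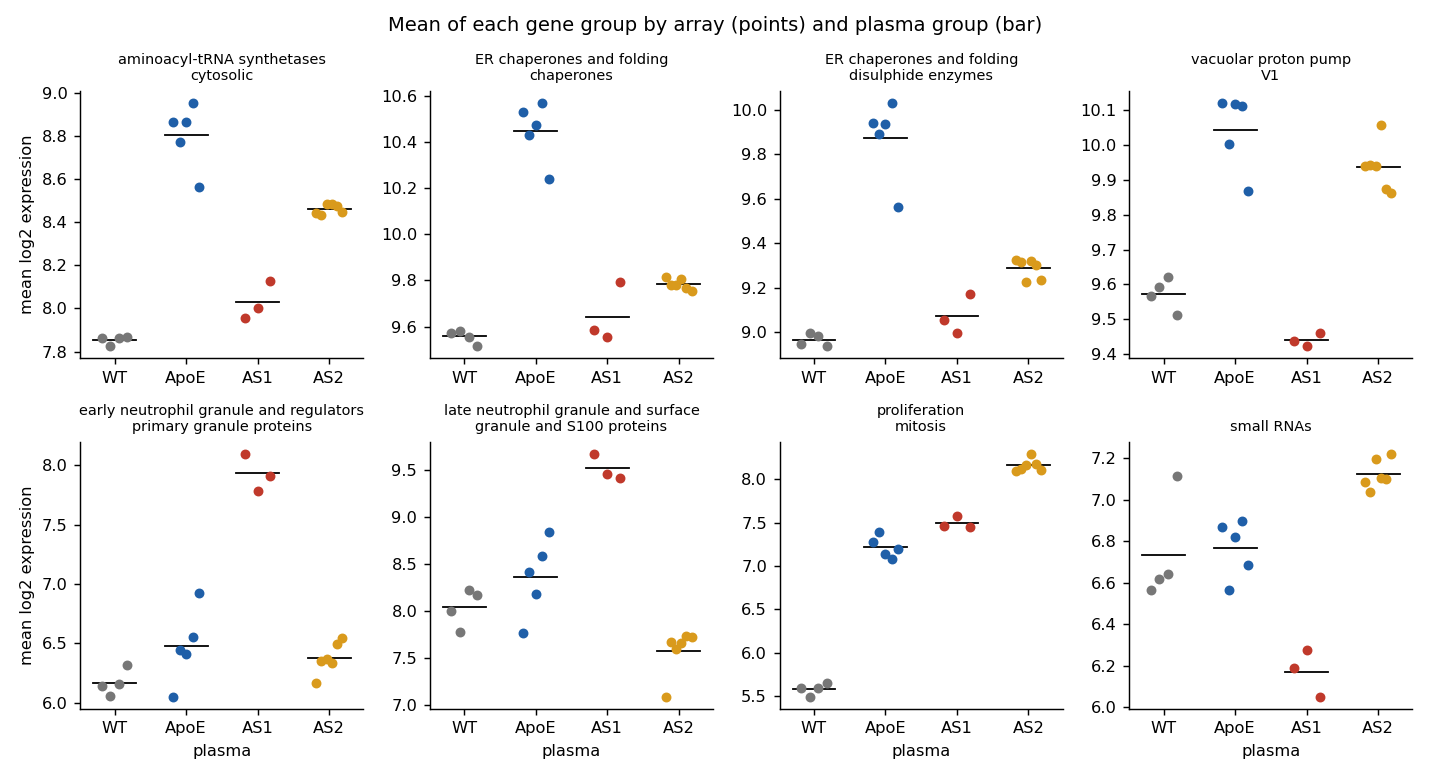
Mean log2 expression of the genes of 8 groups in each of the 18 arrays, by plasma group, with points for single arrays and a bar for the mean of the arrays. Cytosolic synthetases, ER chaperones and disulphide enzymes are highest with ApoE plasma, both neutrophil groups are highest with AS1 plasma, and mitosis genes are lowest with WT plasma.

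The other plasma groups showed where the AS1 levels lay. Against WT plasma 9.48% of rows passed (4.84% higher and 4.64% lower with AS1) and against AS2 plasma 22.1% (10.6% and 11.5%). At 2-fold or more the shares were 1.21% and 2.11%. Without AS1 replicate 3, 709 rows were lower than with WT plasma, against 1147 with it. These comparisons share the AS1 arrays with the one above. For the ER chaperones the median difference from WT was 0.08, and 1 of 11 was higher. For the cytosolic synthetases it was 0.10, with 5 of 19 higher and none lower, and Aars was 7.18 ± 0.16 (SD, n = 4) with WT against 7.86 ± 0.035 (n = 3) with AS1 plasma. Asns remained above the WT level, at 7.60 ± 0.39 against 6.10 ± 0.30, a difference of 1.501 ± 0.21 (adjusted p = 0.000136), and so did Mthfd2 (1.72 ± 0.18, adjusted p = 5.53e-06). Slc7a11 lay below it, at 5.85 ± 0.18 against 7.33 ± 0.051 (-1.48 ± 0.16, adjusted p = 8.04e-06).

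Some receptors that were higher than with ApoE plasma had WT levels near those with AS1 plasma. Marco was 9.16 ± 0.08 with WT and 8.70 ± 1.13 with AS1 plasma (adjusted p = 0.539), and Tmem176b 11.18 ± 0.099 and 11.13 ± 0.35 (adjusted p = 0.951). A p that misses the threshold does not show that the levels were equal. Cd300e, an activating receptor gene of monocytes, was higher than with ApoE plasma by 1.10 and yet lower than with WT plasma by 2.60 ± 0.19 (adjusted p = 7.56e-08). Id3 was lower than in both, at 4.79 ± 0.073 against 5.34 ± 0.31 with ApoE and 7.53 ± 0.23 with WT plasma (adjusted p = 0.0148 and 2.92e-09). Id3 did not pass without AS1 replicates 2 or 3 (adjusted p up to 0.0582). Id3 did not pass in a fit of the AS1 and ApoE arrays alone (adjusted p = 0.0727).

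The test of AS1 against AS2 plasma sets plasma of the 2 stabilin knockouts against each other, and the ApoE term cancels in it. Among the genes described above, the 3 with the largest differences between AS1 and AS2 were Fcrls (3.72 ± 0.28, adjusted p = 4.20e-08), Retnlg (3.20 ± 0.37, adjusted p = 4.66e-06) and Marco (3.19 ± 0.32, adjusted p = 1.19e-06). Il1b was higher than with AS2 plasma by 2.58 ± 0.19, and the difference of Ccl2 was -2.68 ± 0.19 (adjusted p = 3.30e-08 and 1.75e-08). Il1rn, which did not pass against ApoE plasma, was at 7.45 ± 0.06 (SD, n = 3) with AS1 and 9.64 ± 0.17 (n = 6) with AS2 plasma (adjusted p = 2.01e-09). The cytosolic synthetases were lower with AS1 than with AS2 plasma in 15 of 19 cases, with a median of -0.52, and Eprs differed by -0.71 ± 0.09 (adjusted p = 1.27e-05). The ER chaperones were lower in 4 of 11 and higher in 1, with a median of -0.12, and Hspa5 differed by -0.22 ± 0.074 (adjusted p = 0.042).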

How the data were processed

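RNA of bone marrow-derived macrophages was measured on Affymetrix arrays. The deposited table gives log2 expression values made by the authors with RMA, per the submitters' processing notes, with no version or summary level given in the sources used here. RMA corrects background and makes the value distributions of all arrays alike, so a shift common to all genes cannot be seen. Of 25428 rows, 723 carried no gene symbol and were left out of the main test, and symbols were updated through RefSeq by Entrez gene number for 24673 rows. All 18 arrays were fitted with limma 3.58.1 in R 4.3.3 as 4 group means, with eBayes and Benjamini-Hochberg adjustment over 24705 rows. The threshold was 0.05, and all tests were two-sided. Differences are on the log2 scale, and array number limits the precision. On simulated data with 24705 rows for AS1 against ApoE, 35 of 50 changes of 0.5 and 50 of 50 changes of 1 log2 unit were called, with 7 false among 191 calls. The simulated noise was independent between arrays, with the same spread in all groups, and few rows were changed. The false share therefore need not hold for these data. Gene groups came from hand-written lists, with 828 genes measured, and genes were named by size of difference within lists and over all rows, with others where a sentence needed them. Members and lists were chosen with earlier results of these data known, so their counts are descriptions. Alternatives changed the rows tested, the normalization, the variance model, the arrays used and the block by replicate number.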

Additional observations from a re-analysis of the deposited data

Results flagged for a closer look

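In 25 of 282 genes named in the report, 1 of the 5 ApoE arrays stood apart from the other 4, its gap to the nearest of them taking a large part of the group range. That share of the range stands in brackets. Chance alone flags about 1 in 20 groups. ApoE replicate 2 was the highest array for Kars (0.73). ApoE replicate 2 was the lowest array for Cd200r3 (0.737), Ly96 (0.851) and Nqo1 (0.752). ApoE replicate 3 was the highest array for Vegfa (0.743). ApoE replicate 4 was the highest array for Ctsb (0.749) and Cd200r2 (0.764). ApoE replicate 4 was the lowest array for Cd14 (0.772). ApoE replicate 5 was the highest array for Psmb9 (0.86), Aif1 (0.777), Ms4a4a (0.736), Ms4a6c (0.734), Clec7a (0.775) and Tlr9 (0.72). ApoE replicate 5 was the lowest array for Rai14 (0.741), Glce (0.711), Mtrr (0.807), Cars (0.787), Tars (0.715), Ero1a (0.757), Creld2 (0.803), Sel1l (0.712), Hmgcs1 (0.776), Kdr (0.711) and Snord16a (0.737). Among the 723 rows of the table without a gene symbol, 147 passed the threshold between AS1 and ApoE plasma in limma fitted to all rows (72 higher and 75 lower, or 20.3%), against 16.5% of the rows with a symbol. These rows have no name in the tables used here.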

How the results depend on the processing

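Of 282 genes named, 221 passed the threshold, and 175 of these passed with the same sign under every alternative run that could be computed per gene. None reversed. Fitting only the 2 groups compared lost the call of 39 of them, which are named with their p-values in the text. Of 192 counts of higher or lower members of gene groups, 59 stayed within 1.5 times in every setting. Fitting the 2 groups alone moved 64 of them by more, leaving out AS1 replicate 1, 2 or 3 moved 37, 26 and 22, and a minimum change of 0.5 log2 units moved 104. Over all alternatives the count was 17 to 19 of the 21 late and 7 to 11 of the 12 early neutrophil genes, 14 to 17 of the 19 cytosolic synthetases and 17 to 24 of the 28 ER genes. Leaving out 1 array gave 3045 to 4429 rows past the threshold for AS1 minus ApoE (1434 to 2087 higher, 1611 to 2342 lower, 219 to 356 at 2-fold). For AS1 minus AS2 the ranges were 4329 to 5501 rows, with 2099 to 2660 higher, 2230 to 2841 lower and 498 to 553 at 2-fold. For AS1 minus WT they were 1605 to 2543 rows, with 878 to 1242 higher, 709 to 1301 lower and 280 to 311 at 2-fold. A minimum change of 0.5 log2 units left 1669 rows (782 higher, 887 lower) for AS1 minus ApoE, 2346 (1114 and 1232) for AS1 minus AS2 and 994 (618 and 376) for AS1 minus WT. It left 6 proteasome genes lower. Fitting only the 2 groups left 4 of 7 V1 genes lower. The share of calls that were higher was 46.8% as reported, after renewed quantile normalization and after centring on array medians. RMA had already made the value distributions of the arrays alike, so these alternatives could not show a dependence on the normalization. Same-numbered arrays of AS1 and ApoE had correlations of deviations of -0.14, 0.13 and -0.065. Differently numbered arrays ranged from -0.16 to 0.16. Deviations from means of so few arrays cannot show whether same-numbered arrays shared a culture or donor. With the replicate number as a block, 3748 rows passed (1764 higher, 1984 lower). The cause of these shifts was not tested. Of the 4941 rows with the lowest mean levels and the next 4941, which have the least signal over background, 0.364% and 1.17% passed, against 6.42% of the 4941 that follow and hold the array median.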
